A study of Mus musculus with 26 samples.

Results

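A set of 37 genes of glycolysis and of the response to low oxygen was followed through 26 libraries of mouse fibroblasts and macrophages that had been grown alone or together. The genes were listed by name for their known roles, with no threshold on a measured value, although earlier results of these data were known when the list was made. Of the 37, 36 were listed and tested in each cell type, among 12948 genes listed for fibroblasts and 11822 listed for macrophages. Pfkp, a phosphofructokinase gene, was not analysed here. All 36 passed the filter on low values in both cell types (12401 fibroblast and 10088 macrophage genes passed in all).

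The fibroblasts were taken from the normal mammary fat pads of BALB/c females 8 weeks old, with 2 mice pooled per replicate, expanded on collagen I and depleted of cells carrying CD45 or EpCAM. The macrophages were grown from bone marrow of BALB/c females, also 8 weeks old, in DMEM that held 20% L929 CM, a medium conditioned by a fibroblast line that supplies the growth factor macrophages need, beside 10% FBS and 5% P/S, and were reseeded on day 7. Either cell type was then grown alone (mono-culture), or both were grown together (co-culture) from 300000 seeded cells of each, in DMEM with the same serum or in 4T1 CM, which is medium taken from the breast cancer line 4T1 of the same mouse strain. The co-cultures were sorted after 7 days on dead-cell dye and on F4/80 and CD11b, with 10000 fibroblasts collected as negative cells and the macrophages as positive cells. The fibroblasts gave 3 libraries from mono-cultures in DMEM, 2 from mono-cultures in 4T1 CM, 3 from co-cultures in DMEM and 4 from co-cultures in 4T1 CM. The macrophages gave 3 libraries at day 0, 4 from mono-cultures in 4T1 CM, 3 from co-cultures in DMEM and 4 from co-cultures in 4T1 CM. The 3 libraries taken as day 0 carry the name of DMEM in their table and of day 0 in their labels, and no other macrophage mono-culture in DMEM was analysed here. The sources used here give no oxygen tension, glucose or lactate and no harvest day for the mono-cultures.

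Glycolysis splits glucose into pyruvate, which can be reduced to lactate and exported when mitochondria do not take it up. When oxygen is scarce, prolyl hydroxylases stop marking the alpha subunit of the hypoxia-inducible factor (HIF) for destruction, and HIF then switches on genes for glucose uptake, glycolysis, mitophagy, blood vessel growth and collagen modification. In macrophages HIF can also be raised by bacterial products, cytokines and lactate in normal oxygen, and its targets are used as a marker of both states.

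Many of these genes hold the core of the HIF response element close to their start. In the RefSeq promoter windows of GRCm38.p6 (250 bases before to 50 after each start), 34 of the 37 genes matched, with 50 windows. The core was searched as ACGTG and as GCGTG on both strands, a CACGTG counting once on each strand. Windows with ACGTG made up 54% of the 50 against 19.62% of all 32851 windows, and those with GCGTG 56% against 32.39%. With either motif it was 78% against 43.77%. The list holds known HIF targets, some windows of the same gene overlap, and windows were not matched for base composition. These shares therefore describe the list and are no test of it. Shown here are 5 of the genes that were called higher in every macrophage comparison below, one each from transport, pyruvate use, oxygen sensing, mitophagy and growth control, by the 250 bases before the start, 5′ to 3′ on the gene's strand, with the motifs in capitals.
Slc2a1 (chr4:119108495-119108744, + strand): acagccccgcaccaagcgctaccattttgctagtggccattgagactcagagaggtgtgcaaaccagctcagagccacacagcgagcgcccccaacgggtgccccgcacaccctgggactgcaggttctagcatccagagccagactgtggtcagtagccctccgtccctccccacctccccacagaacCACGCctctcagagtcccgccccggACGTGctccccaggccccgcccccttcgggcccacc
Ldha (chr7:46845554-46845803, + strand): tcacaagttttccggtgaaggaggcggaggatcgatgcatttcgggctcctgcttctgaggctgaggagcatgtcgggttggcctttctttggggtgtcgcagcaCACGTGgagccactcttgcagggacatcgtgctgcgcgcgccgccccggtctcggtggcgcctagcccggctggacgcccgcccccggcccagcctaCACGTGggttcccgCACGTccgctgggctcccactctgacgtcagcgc
Egln3 (chr12:54203875-54204124, - strand): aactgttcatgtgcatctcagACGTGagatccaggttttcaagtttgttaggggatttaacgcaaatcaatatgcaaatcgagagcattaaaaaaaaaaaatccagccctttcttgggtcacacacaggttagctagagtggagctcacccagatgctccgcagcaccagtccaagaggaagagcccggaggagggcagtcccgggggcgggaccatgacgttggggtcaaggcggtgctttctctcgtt
Bnip3 (chr7:138909507-138909756, - strand): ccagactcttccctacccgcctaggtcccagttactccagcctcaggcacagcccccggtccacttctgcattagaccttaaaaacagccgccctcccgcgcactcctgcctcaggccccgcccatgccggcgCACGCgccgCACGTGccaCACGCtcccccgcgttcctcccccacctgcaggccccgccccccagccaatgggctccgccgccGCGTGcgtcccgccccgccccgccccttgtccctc
Ddit4 (chr10:59951771-59952020, - strand): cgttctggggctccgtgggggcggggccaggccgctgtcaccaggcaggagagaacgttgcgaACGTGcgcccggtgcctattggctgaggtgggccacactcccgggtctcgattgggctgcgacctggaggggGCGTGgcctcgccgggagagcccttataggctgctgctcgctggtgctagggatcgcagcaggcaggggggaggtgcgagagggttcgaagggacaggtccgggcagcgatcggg
Slc2a1 holds 2 sites in this stretch, Ldha 5, Egln3 1, Bnip3 5 and Ddit4 2. In Ldha a pair of palindromic CACGTG copies gives 4 of the 5. Genes with no such letters in a window, such as Gpi1, Tpi1 and Eno2, were called higher in macrophages too. A match describes the letters of the reference strain, which is not BALB/c, and binding was not measured.

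RNA was read from the 3′ end of messages, so a read count is close to a message count and no length correction applies. Libraries held 1945980 to 7632366 reads in fibroblasts and 1434695 to 4140985 in macrophages. All values below are the authors' normalized reads (reads divided by a library's size factor), set separately for each cell type, so levels are compared within a cell type only. In fibroblasts the 21 fibroblast markers summed to 33022 to 58996 CPM (counts per library total, scaled alike in all), and in macrophages the 26 macrophage markers to 53260 to 91333. Each sort also held RNA of the partner. The fibroblast share of the macrophage libraries, the median level of 20 fibroblast markers relative to sorted co-cultured fibroblasts, was 8.08% ± 8.05 (SD, n = 4) in co-culture in 4T1 CM and 3.84% ± 2.88 (SD, n = 3) in co-culture in DMEM. It was 0.0400% at day 0 and 0.0682% in mono-culture, and the highest library, co-culture in 4T1 CM replicate 3, reached 19.9%. The macrophage share of the fibroblast libraries was at most 1.84%. In bulk samples, fewer cells of a type and less RNA per cell cannot be told apart.

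In macrophages most members were higher in most comparisons, and 0 were called lower in any of the 5. A gene was called when its Benjamini-Hochberg adjusted p in edgeR's quasi-likelihood test was under 0.05. Against mono-culture in the same 4T1 CM, 27 of 36 members were called in co-culture, all of them higher, where 26.0% of all tested genes were called in either direction and 11.9% lower, with a median log2 change of 0.98 over the members and 0.03 over all genes. Within co-culture, 4T1 CM raised 16 of 36 over DMEM, against 5.68% of all genes (4.63% were lower), with a median of 0.57. Set against day 0, 26 of 36 were higher in co-culture in DMEM (8.47% of all genes), 20 in mono-culture in 4T1 CM (11.1%) and 31 in co-culture in 4T1 CM (16.7%), with medians of 1.45, 0.94 and 2.09. Lower calls there made up 6.71%, 10.9% and 14.8% of all genes. Against day 0, time in culture (7 days in the co-cultures) changed together with partner, medium or both. Their parts cannot be told apart. These 5 comparisons share libraries, so their counts are not independent of each other.

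The group means of 24 of 36 members rose in 1 order, from day 0 over mono-culture in 4T1 CM and co-culture in DMEM to co-culture in 4T1 CM. The same order held for 8.23% of all genes tested. The design does not set this order and no other order was counted, so these shares describe the means and test nothing. The mean was highest in co-culture in 4T1 CM for 34 of 36 members (31.3% of all genes) and lowest at day 0 for 31 of 36 (28.7% of all genes). The step from mono-culture in 4T1 CM to co-culture in DMEM changes partner and medium together and was not tested. There were 12 members called higher in all 5 comparisons, which was true of 76 of the 10088 genes: Slc2a1, Slc16a3, Pfkfb3, Eno2, Ldha, Egln1, Egln3, Bnip3, Vegfa, Mif, P4ha1 and Ddit4. Not all of these calls held in every alternative. For 4T1 CM in co-culture, Eno2, Ldha, Egln1, Mif and Ddit4 lost theirs without replicate 1 of co-culture in DMEM, and P4ha1 without its replicate 2. Ddit4 also lost its call for co-culture in DMEM against day 0 once the fibroblast share was subtracted.

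**Figure D1:**
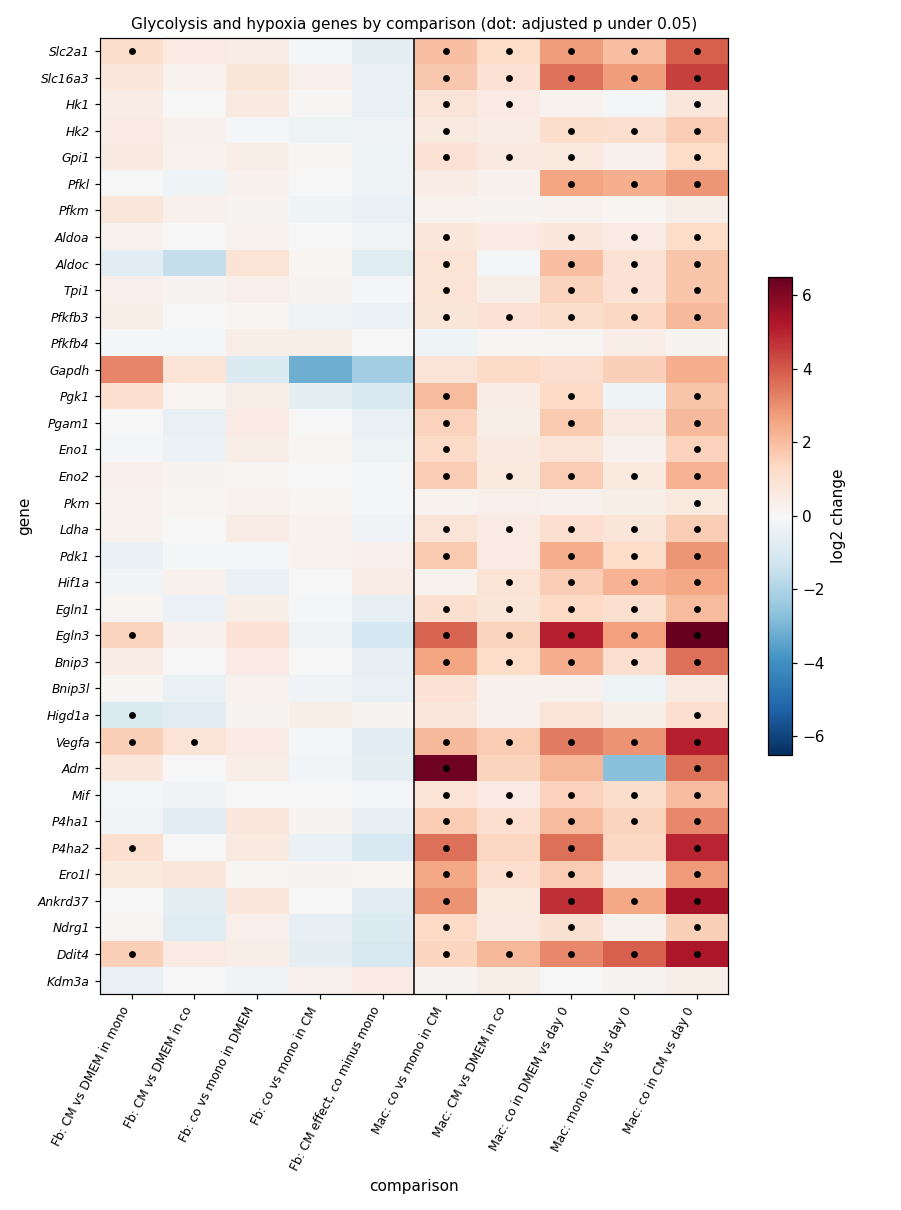
Log2 change of each of the 36 genes (rows) in the 5 fibroblast (Fb) and 5 macrophage (Mac) comparisons (columns), with red higher and blue lower in the group named first. A dot marks an adjusted p under 0.05. Dots crowd the macrophage side, from 16 to 31 of 36 per column, and number 6, 1, 0, 0 and 0 on the fibroblast side.

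Both transporters in the set, for glucose entry and lactate exit, were called higher in all 5 comparisons. Slc2a1, the glucose transporter that HIF is best known to raise, stood at 74.0, 55.7 and 57.9 normalized reads at day 0 and at 226, 219.9, 274 and 223 in mono-culture in 4T1 CM. It then reached 315, 405 and 496 in co-culture in DMEM and 993, 788, 962 and 942 in co-culture in 4T1 CM. No library of one group overlapped another group. The log2 change with co-culture in 4T1 CM was 1.95 ± 0.15 (SE, adjusted p = 3.96e-07), and that with 4T1 CM in co-culture 1.19 ± 0.16 (adjusted p = 1.45e-04). From day 0 to co-culture in 4T1 CM the gene was 14.9-fold higher.
Slc16a3, which carries lactate out of the cell, stood at 155, 117 and 149.6 at day 0, 864, 768, 1128 and 798 in mono-culture in 4T1 CM, 1403, 1461 and 1893 in co-culture in DMEM and 3165, 2647, 3162 and 2990.2 in co-culture in 4T1 CM. Its 4 groups did not overlap either. The log2 changes were 1.73 ± 0.15 with co-culture in 4T1 CM and 0.92 ± 0.16 with 4T1 CM in co-culture (adjusted p = 1.42e-06 and 0.00152).
A second glucose transporter, Slc2a3, which is not a member, took another path. It stood at 50.6, 48.0 and 46.2 at day 0, 3.57, 3.53, 7.76 and 6.22 in mono-culture in 4T1 CM, 9.47, 13.8 and 13.7 in co-culture in DMEM and 13.1, 15.5, 20.7 and 17.8 in co-culture in 4T1 CM. Its log2 change against day 0 was -3.12 ± 0.28, -1.92 ± 0.28 and -1.49 ± 0.25 in these 3 groups (adjusted p = 6.36e-07, 1.74e-04 and 2.23e-04), while co-culture in 4T1 CM was higher than mono-culture by 1.63 ± 0.31 (adjusted p = 9.35e-04). The gene thus fell below day 0 in every cultured group and still lay higher in co-culture than in mono-culture in 4T1 CM. The fibroblast share would bring 28.8% of Slc2a3 in co-culture in 4T1 CM, and 13.2%, 12.2%, 57.1% and 21.4% in its single libraries.

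**Figure D2:**
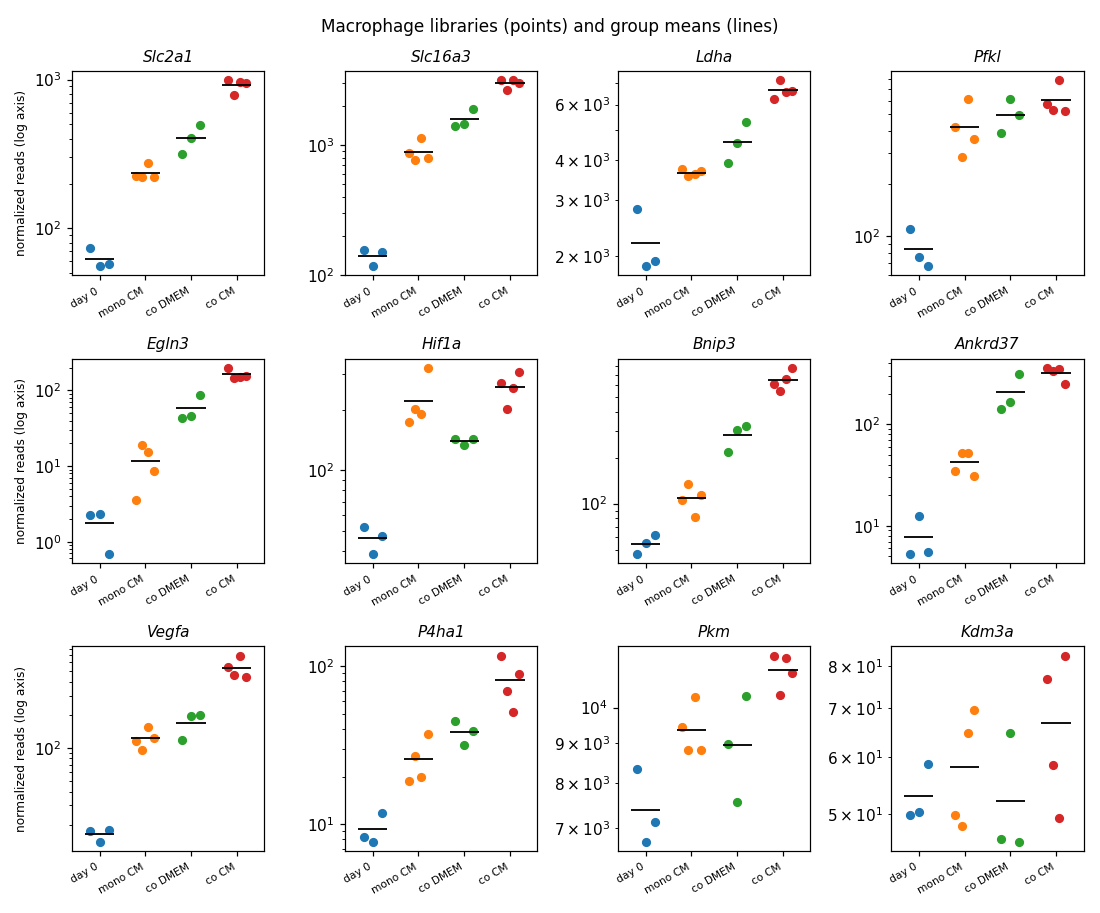
Normalized reads (log axis) of 12 genes in the 14 macrophage libraries (points) with the group means (lines), by group. Slc2a1, Slc16a3 and Bnip3 climb through 4 separate groups, Hif1a lies lower in co-culture in DMEM than in mono-culture in 4T1 CM, and the groups of Kdm3a overlap.

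Of the 8 tested enzymes of upper glycolysis, which carry glucose to triose phosphate, co-culture in 4T1 CM raised 6, with log2 changes of up to 0.92. In that comparison 26.0% of all tested genes were called in either direction and 11.9% lower. Gpi1, the phosphoglucose isomerase, stood at 1087, 923, 1201 and 961 in mono-culture and 2078, 1941, 2221 and 1742 in co-culture in 4T1 CM, a change of 0.92 ± 0.14 (adjusted p = 1.83e-04). Hk1, the housekeeping hexokinase, went from 220.3, 221, 319 and 238 to 440.4, 472, 457 and 430.5 (0.83 ± 0.13, adjusted p = 2.44e-04). The groups of both genes were separate. Hk2, the inducible hexokinase, went from 44.6, 74.1, 80.2 and 57.2 to 84.3, 106, 105 and 89.8 (0.58 ± 0.18, adjusted p = 0.0292), and its call was lost in 5 of 15 alternatives, with an adjusted p of up to 0.0909. Tpi1, Aldoa and Aldoc were also called, with 0.87, 0.69 and 0.89.
Pfkl, the liver phosphofructokinase, stood at 110.2, 75.9 and 67.6 at day 0, 425, 283, 615 and 361 in mono-culture in 4T1 CM, 389, 609 and 494 in co-culture in DMEM and 573, 527, 787 and 525 in co-culture in 4T1 CM. All cultured libraries lay above all day 0 libraries, with changes of 2.36 ± 0.27, 2.57 ± 0.28 and 2.85 ± 0.27, and the cultured groups overlapped among themselves. Between co-culture and mono-culture in 4T1 CM its change was 0.50 ± 0.22 and missed the threshold (adjusted p = 0.115). The muscle form Pfkm was called in none of the 5 comparisons and ranged over 30.2 to 87.6 in the 14 libraries.

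Of the regulators of phosphofructokinase, Pfkfb3, which makes its activator, a fructose bisphosphate, was called in all 5 comparisons and Pfkfb4 in none. Pfkfb3 stood at 53.6, 79.7 and 88.2 at day 0, 186, 146, 192 and 214 in mono-culture in 4T1 CM, 183, 149.6 and 158 in co-culture in DMEM and 289, 252, 322 and 402 in co-culture in 4T1 CM. Mono-culture in 4T1 CM and co-culture in DMEM overlapped, and the other groups were separate. The change with 4T1 CM in co-culture was 0.96 ± 0.19 and that with co-culture in 4T1 CM 0.76 ± 0.17 (adjusted p = 0.00338 and 0.00361). Pfkfb4 ranged over 168 to 382, and its mean was highest in mono-culture.

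Of the 6 members of lower glycolysis, which yield ATP and pyruvate, co-culture in 4T1 CM raised Pgk1, Pgam1, Eno1 and Eno2. As above, 26.0% of all tested genes were called there in either direction and 11.9% lower. Eno2, an enolase that HIF is known to raise outside neurons too, stood at 160.0, 260.1 and 273 at day 0, 311, 396, 329.5 and 381 in mono-culture in 4T1 CM, 578, 726 and 854 in co-culture in DMEM and 1066, 982, 1133 and 1196 in co-culture in 4T1 CM. Its 4 groups did not overlap, and the change with co-culture in 4T1 CM was 1.61 ± 0.17 (adjusted p = 6.65e-06). Pgk1, the phosphoglycerate kinase, was low throughout, at 9.81, 16.5, 11.2 and 7.47 in mono-culture and 48.7, 33.5, 51.0 and 56.9 in co-culture in 4T1 CM (2.05 ± 0.30, adjusted p = 1.13e-04). Pgam1, the mutase, went from 33.9, 32.9, 38.8 and 38.6 to 111, 116, 107 and 85.4 (1.52 ± 0.22, adjusted p = 1.13e-04). For both the co-cultured libraries lay above the mono-cultured ones.
Pkm, the pyruvate kinase, changed little for its high level, from 6724 to 8328 at day 0 to 10364 to 11656 in co-culture in 4T1 CM (0.62 ± 0.14, adjusted p = 0.00254), and was not called in the other 4 comparisons. Eno1 was called with co-culture in 4T1 CM at 1.22 ± 0.34 (adjusted p = 0.0139) although its groups overlapped, at 260.4, 548, 169.9 and 235 in mono-culture and 988, 575, 435 and 847 in co-culture. Eno1, Pkm, Ldha, Aldoa, Tpi1, Gpi1, Bnip3, Mif and Higd1a share at least 95% identity over at least 100 bases of their transcript ends with 1 to 6 other annotated genes, mostly pseudogenes, so their counts carry that uncertainty.

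At the branch of pyruvate, Ldha, the subunit of lactate dehydrogenase that favours lactate, stood at 2811, 1861 and 1928 at day 0, 3749, 3573, 3614 and 3711 in mono-culture in 4T1 CM, 3920.2, 4541 and 5293 in co-culture in DMEM and 6244, 7164, 6574 and 6614 in co-culture in 4T1 CM. The 4 groups were separate, and the change with co-culture in 4T1 CM was 0.85 ± 0.14 (adjusted p = 3.74e-04). Pdk1, the kinase that turns off pyruvate dehydrogenase, stood at 4.53, 6.19 and 5.52, 9.81, 10.6, 9.49 and 19.9, 23.7, 27.6 and 32.1 and 50.6, 35.2, 28.7 and 47.1 in the same order of groups. It was 3.26-fold higher in co-culture than in mono-culture in 4T1 CM (log2 change 1.71 ± 0.28, adjusted p = 3.20e-04). With 4T1 CM in co-culture the groups of Pdk1 overlapped and the change of 0.53 ± 0.28 missed the threshold (adjusted p = 0.268).

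The oxygen-sensing members were not all called higher in co-culture than in mono-culture in 4T1 CM. Hif1a, the regulated subunit of HIF, stood at 52.8, 38.7 and 47.6 at day 0, 173, 202, 189.8 and 321 in mono-culture in 4T1 CM, 143, 134 and 143 in co-culture in DMEM and 269.9, 200.1, 255 and 306 in co-culture in 4T1 CM. Both groups in 4T1 CM overlapped each other and lay above co-culture in DMEM, which in turn lay above day 0. Its message rose with 4T1 CM in co-culture by 0.88 ± 0.20 (adjusted p = 0.00917), while co-culture gave 0.21 ± 0.18 over mono-culture in 4T1 CM (adjusted p = 0.433). HIF protein was not measured.
Egln3, a prolyl hydroxylase that is itself raised by HIF, stood at 2.26, 2.32 and 0.689 at day 0, 3.57, 18.8, 15.5 and 8.71 in mono-culture in 4T1 CM, 43.8, 45.6 and 87.7 in co-culture in DMEM and 199, 147, 151 and 155 in co-culture in 4T1 CM. Its groups did not overlap, and the day 0 values rest on a few reads each. With co-culture in 4T1 CM it was 13.8-fold higher (3.79 ± 0.34, adjusted p = 1.42e-06). Egln1, the main hydroxylase in most cells, changed less, from 102, 134, 206 and 164 to 298, 273, 311 and 374 (1.04 ± 0.19, adjusted p = 7.55e-04), also without overlap.

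Of the mitochondrial members, Bnip3, a receptor that delivers mitochondria to autophagy, stood at 46.8, 55.0 and 62.0 at day 0, 106, 135, 81.1 and 114 in mono-culture in 4T1 CM, 217, 303 and 321 in co-culture in DMEM and 611, 549.6, 652 and 775 in co-culture in 4T1 CM. The groups were separate, with 2.56 ± 0.18 between co-culture and mono-culture and 1.21 ± 0.18 between both co-cultures (adjusted p = 1.99e-07 and 3.55e-04). Its relative Bnip3l was called in no comparison and ranged over 12.1 to 235. Higd1a, a small protein of the inner membrane, was called only for co-culture in 4T1 CM against day 0 (1.12 ± 0.32, adjusted p = 0.0133), and its groups overlapped.

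Of the secreted members, Vegfa, which drives blood vessel growth, stood at 17.4, 13.9 and 17.9 at day 0, 116, 96.4, 154 and 123 in mono-culture in 4T1 CM, 117, 193 and 199 in co-culture in DMEM and 543, 462, 691 and 446 in co-culture in 4T1 CM. It was 4.3-fold higher with co-culture in 4T1 CM (2.10 ± 0.19, adjusted p = 1.67e-06) and 3.14-fold higher with 4T1 CM in co-culture (1.65 ± 0.20, adjusted p = 7.27e-05). The co-culture in 4T1 CM lay above all other groups, and mono-culture in 4T1 CM overlapped co-culture in DMEM. Mif, a cytokine made without stimulation by many cells, went from 1737, 1953, 2095 and 1871 to 4108, 3017, 3439 and 3531 with co-culture in 4T1 CM (0.87 ± 0.15, adjusted p = 4.03e-04).
Adm, the precursor of the vasodilator adrenomedullin, stood at 3.02, 6.97 and 7.58 at day 0, 0.892, 0, 0.863 and 1.24 in mono-culture in 4T1 CM, 8.29, 11.7 and 53.7 in co-culture in DMEM and 18.7, 35.2, 202 and 38.2 in co-culture in 4T1 CM. Every mono-cultured library lay below every day 0 library, with a change of -2.74 ± 1.46 that missed the threshold (adjusted p = 0.214). The co-cultured libraries lay above both of these groups, and above the mono-cultured ones with a call (adjusted p = 3.37e-04), which hold at most a few reads each, so no fold is given. The fibroblast share would bring 60.0% of its value in co-culture in 4T1 CM and 85.2% in DMEM, and without that share its rise over day 0 in co-culture in 4T1 CM was no longer called (adjusted p = 0.0729).

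Of the members that modify and fold collagen, P4ha1, a catalytic subunit of collagen prolyl hydroxylase, stood at 8.30, 7.74 and 11.7 at day 0, 18.7, 27.0, 19.8 and 37.3 in mono-culture in 4T1 CM, 45.0, 31.8 and 38.6 in co-culture in DMEM and 116, 69.6, 51.0 and 88.9 in co-culture in 4T1 CM. The change with co-culture in 4T1 CM was 1.66 ± 0.27 and that with 4T1 CM in co-culture 1.08 ± 0.28 (adjusted p = 2.76e-04 and 0.0191). Only mono-culture in 4T1 CM and co-culture in DMEM overlapped. The fibroblast share would bring 3.54% of P4ha1 in co-culture in 4T1 CM and 44.3% of its relative P4ha2, which went from 22.3, 54.1, 35.4 and 38.6 in mono-culture to 296, 278, 922 and 323 in co-culture (3.59 ± 0.44, adjusted p = 2.66e-05). Ero1l, an oxidase that forms disulfide bonds in the endoplasmic reticulum, went from 8.92, 11.8, 11.2 and 18.7 to 90.0, 41.2, 62.1 and 92.5 (2.49 ± 0.32, adjusted p = 4.27e-05).

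The remaining HIF targets held both wide and narrow ranges. Ankrd37, an ankyrin-repeat gene raised by HIF, stood at 5.28, 12.4 and 5.52 at day 0, 34.8, 51.7, 52.6 and 31.1 in mono-culture in 4T1 CM, 142, 167 and 314 in co-culture in DMEM and 362, 337, 349 and 249.9 in co-culture in 4T1 CM. It was 7.47-fold higher with co-culture in 4T1 CM (2.90 ± 0.27, adjusted p = 1.76e-06), while both co-cultures overlapped and their difference of 0.63 ± 0.25 missed the threshold (adjusted p = 0.137). Only 1.22% of its value in co-culture in 4T1 CM would come from the fibroblast share.
Ddit4, an inhibitor of mTOR signalling raised by several stresses, stood at 4.53, 6.19 and 5.52 at day 0, 144, 21.2, 89.7 and 57.2 in mono-culture in 4T1 CM, 15.4, 39.3 and 79.2 in co-culture in DMEM and 225, 227, 307 and 96.9 in co-culture in 4T1 CM. All cultured libraries lay above day 0, and mono-culture in 4T1 CM overlapped both co-cultures. The change with 4T1 CM in co-culture was 2.18 ± 0.52 (adjusted p = 0.0124). The fibroblast share would bring 49.9% of Ddit4 in co-culture in 4T1 CM and 77.8% in co-culture in DMEM. The call of Ddit4 for co-culture over mono-culture in 4T1 CM, 1.40 ± 0.45 (adjusted p = 0.031), was lost in 7 of 15 alternatives. In these the change fell to as little as 0.57, and subtraction of that share was among them.
Ndrg1, a stress-response gene, went from 246, 310.4, 332 and 347 to 800.2, 828, 747 and 638 with co-culture in 4T1 CM (1.27 ± 0.18, adjusted p = 1.01e-04), with no overlap. Kdm3a, a histone demethylase and textbook HIF target, was called in no macrophage comparison and ranged over 45.8 to 82.7.

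Since sorted macrophages from co-cultures held fibroblast RNA, each member's value was set beside the part that the fibroblast share would bring, taken as the share times the level in sorted fibroblasts of the same co-culture. Over the 36 members this part had a median of 7.83% in co-culture in 4T1 CM and 6.01% in DMEM. In 4T1 CM it passed 50% for Adm. In DMEM it did so for Adm, Ddit4 (77.8%) and P4ha2 (53.9%). That part was then subtracted from every co-cultured library, an alternative added after seeing the data. With co-culture in 4T1 CM, 26 of 36 members were then called higher (10.4% of the 9810 genes tested). With 4T1 CM in co-culture it was 18 (6.34%). Against day 0, 25 were higher in co-culture in DMEM (5.98%) and 30 in co-culture in 4T1 CM (14.2%). In these 4 comparisons 0 members were lower, where 936, 486, 579 and 1522 of all genes were. In single libraries the part differed widely. Its median over the members was 22.6% in replicate 3 of co-culture in 4T1 CM and 2.83%, 3.60% and 6.30% in the other 3, and for Slc2a1 it was 29.1% in replicate 3 and 4.15%, 5.70% and 9.57% in the others. In replicate 3 it passed 50% for Hif1a (50.1%), Vegfa (60.6%), Adm (53.6%), P4ha2 (53.5%) and Ddit4 (84.8%), and in replicate 4 for Adm (91.1%) and Ddit4 (86.5%). In replicate 1 of co-culture in DMEM it came to 159.8% for Adm and 143% for Ddit4, more than the measured value.
Markers of several cell types moved beside these calls. All 18 tested fibroblast markers were higher in the co-cultures than in mono-culture or at day 0. Of 25 tested macrophage markers, 16 were lower and 1 higher with co-culture in 4T1 CM, 11 lower and 1 higher with 4T1 CM in co-culture, and 13 lower and 6 higher in co-culture in 4T1 CM against day 0. Their sums were 53260 to 67086 CPM in co-culture in 4T1 CM, 76234 to 91333 in co-culture in DMEM, 81141 to 90211 in mono-culture and 61862 to 70154 at day 0. Cdh1, the 1 tested of 9 epithelial or 4T1 markers, stood at 97.4, 47.2, 62.1 and 54.3 normalized reads in co-culture in 4T1 CM and at no more than 6.55 in any other library, with 0 throughout day 0. The 1 tested neutrophil marker, S100a8, stood at 169, 89.3, 49.4 and 116 in co-culture in 4T1 CM and 32.1, 49.4, 23.3 and 37.3 in mono-culture, and was called higher there (1.57 ± 0.33, adjusted p = 0.00215). Both tested skeletal muscle markers, Tnnt3 and Des, were also higher with co-culture in 4T1 CM. The part of these other cell types in the members' values was not tested.
The 16 calls for 4T1 CM in co-culture rest on few libraries: 8 were left without replicate 1 of co-culture in DMEM, 9 without its replicate 2 and 10 without replicate 4 of co-culture in 4T1 CM. In the other 4 comparisons of macrophages, of the 27, 26, 20 and 31 members called, at least 25, 22, 17 and 30 kept their call whichever library was left out.

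**Figure D3:**
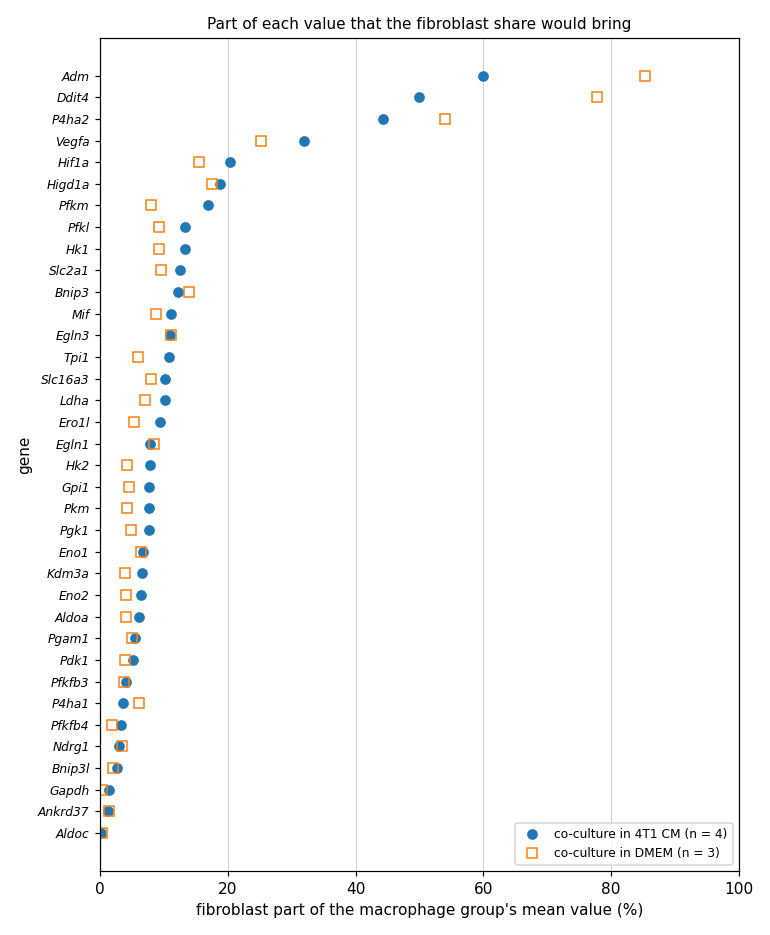
Percent of each gene's mean value in co-cultured macrophages that the fibroblast share of those libraries would bring (horizontal axis), for the co-culture in 4T1 CM (filled circles) and that in DMEM (open squares). Most genes lie under 20%. Adm, Ddit4, P4ha2 and Vegfa lie above 25% in both media.

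Pathway genes outside the set were counted on 2 further lists. Of 31 tested other oxygen-response genes, co-culture in 4T1 CM raised 18 and lowered 2, and 4T1 CM in co-culture raised 8 and lowered 0. With co-culture in 4T1 CM, 26.0% of all genes were called in either direction and 11.9% lower. With 4T1 CM in co-culture, 5.68% of all genes were higher and 4.63% lower. Fam162a, a mitochondrial HIF target, went from 136, 149, 189 and 137 in mono-culture to 686, 551, 808 and 684 in co-culture (2.14 ± 0.17, adjusted p = 8.15e-07). Nos2, which makes nitric oxide and is a mark of inflammatory macrophages, was listed at 0, 1.18, 0 and 0 in mono-culture and stood at 41.2, 36.9, 92.4 and 61.4 in co-culture (adjusted p = 7.83e-06). The fibroblast share would bring 39.2% of Nos2 in co-culture in 4T1 CM, and 19.9%, 24.2%, 60.3% and 29.2% in its 4 libraries. It would bring 18.2% of Fam162a there. Ak4, an adenylate kinase of mitochondria, was also higher (4.30 ± 0.41, adjusted p = 2.71e-06). Of 28 tested other genes of glycolysis and carbon metabolism, 10 were called with co-culture in 4T1 CM, 6 higher and 4 lower, where 26.0% of all genes were called and 11.9% lower, and the median change was 0.12. Gys1, the muscle-type glycogen synthase, was higher (1.93 ± 0.17, adjusted p = 1.20e-06) and Slc2a6, a transporter of lysosomes, lower (-1.54 ± 0.15, adjusted p = 3.76e-06). In co-culture in 4T1 CM against day 0, 16.7% of all genes were higher and 14.8% lower. There, 18 of the oxygen-response list were higher and 3 lower, and 6 of the carbon list were higher and 3 lower. As shares, 21.4% of the carbon list were higher and 10.7% lower there, near those of all genes.

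In fibroblasts, few members were called. With 4T1 CM in mono-culture, 5 of 36 were called higher and 1 lower in limma on log2(normalized reads + 1), where 6.36% of all genes were called higher and 6.93% lower. The 5 were Slc2a1, Egln3, Vegfa, P4ha2 and Ddit4, and the 1 lower was Higd1a. The median log2 change over the members was 0.28, and 17 of 36 had an unadjusted p under 0.05 in limma (28.7% of all genes).
Vegfa stood at 991, 1139 and 1197 in mono-culture in DMEM and 3702 and 2819 in mono-culture in 4T1 CM, then at 1386, 1899.8 and 1617 in co-culture in DMEM and 3120.4, 4800.5, 2585 and 2018 in co-culture in 4T1 CM. In both cultures the libraries in 4T1 CM lay above those in DMEM, with changes of 1.55 ± 0.28 alone and 0.88 ± 0.23 in co-culture (adjusted p = 0.00315 and 0.041). It was the only member called in co-culture, where 2.33% of all genes were called higher and 3.52% lower, and that call was lost in 6 of 17 alternatives. Markers of other cell types moved in this comparison too, with 20 of 23 macrophage, 8 of 8 glial, 6 of 9 endothelial and 8 of 21 fibroblast markers called lower and 2 fibroblast markers higher. From co-culture in DMEM to co-culture in 4T1 CM, macrophage markers summed to 776 to 1715 and 60.7 to 343 CPM, glial markers to 313 to 679 and 2.96 to 228, and endothelial markers to 47.8 to 133 and 16.4 to 39.3, with Fcgr1 and Cldn5 at 0 in 4T1 CM. Their part in the value of Vegfa was not tested.
Slc2a1 went from 875, 1123 and 1092 to 2527 and 2032 with 4T1 CM alone (1.15 ± 0.21, adjusted p = 0.00339), and from 1206, 1541 and 1624 to 2133, 2725, 1769 and 1743 in co-culture (0.51 ± 0.17, adjusted p = 0.114). The groups were separate in both. P4ha2, of use to cells that make collagen, went from 2048, 2538 and 2623 to 5409 and 4554 alone (1.05 ± 0.19, adjusted p = 0.00368) and from 3865, 3821 and 3157 to 3455, 4122, 4293 and 2849.8 in co-culture (0.01 ± 0.16, adjusted p = 0.982). Its groups were separate in mono-culture and overlapped in co-culture, and the difference of the 2 effects missed the threshold (adjusted p = 0.118).
Ddit4 went from 605, 1127 and 1324 to 3005 and 2749 alone (1.57 ± 0.32, adjusted p = 0.00672), and Egln3 from 109, 169 and 115 to 428 and 285 (1.43 ± 0.37, adjusted p = 0.0204). Higd1a went from 174, 179 and 200.1 to 88.8 and 112 (-0.88 ± 0.26, adjusted p = 0.0415). None of these 3 overlapped between the groups. Leaving out replicate 1, 2 or 3 of mono-culture in DMEM removed the call of Higd1a. So did edgeR on reads recovered from the normalized values. Leaving out replicate 1 or 3 also removed the call of Egln3.
The group in 4T1 CM holds 2 libraries, and without its replicate 1 all 6 members lost their calls, and 1 other member, Adm, was called instead. Markers of other cell types moved beside these calls. All 8 glial markers were called lower with 4T1 CM in mono-culture, summing to 337 to 425 CPM in DMEM and 1.98 to 2.06 in 4T1 CM, with Cdh19 at 0. All 9 tested skeletal muscle markers were lower as well, from 167 to 794 down to 20.2 to 20.8, with Mybph, Myod1 and Myog at 0. Their part in the members' values was not tested.

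**Figure D4:**
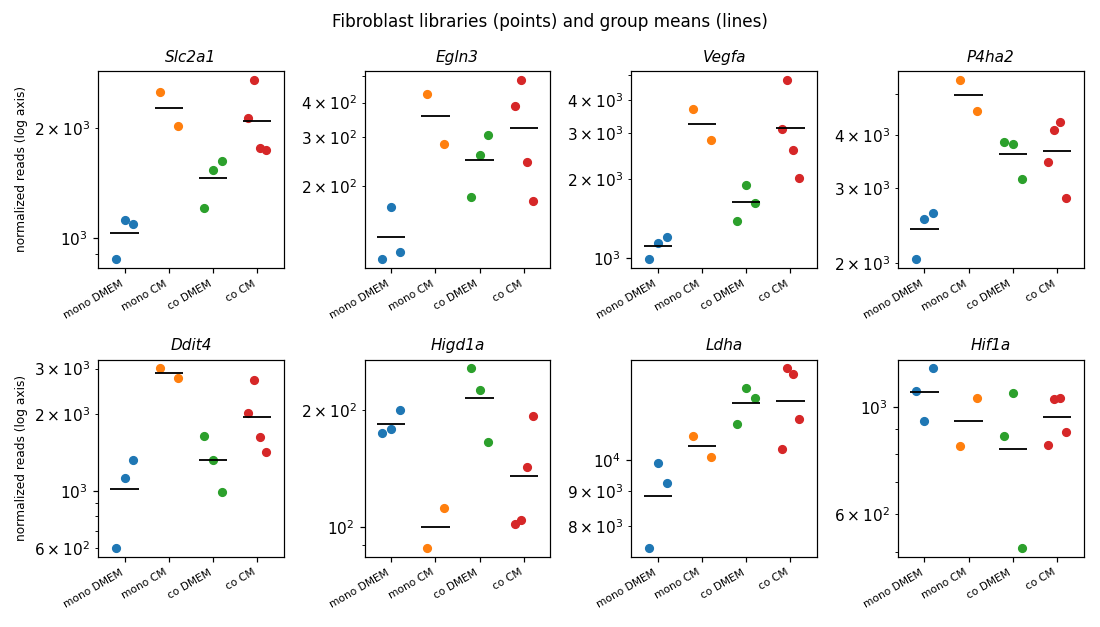
Normalized reads (log axis) of 8 genes in the 12 fibroblast libraries (points) with the group means (lines), by group. Slc2a1, Egln3, Vegfa, P4ha2 and Ddit4 lie higher in the 2 mono-cultures in 4T1 CM than in the 3 in DMEM, Higd1a lies lower, and the groups of Hif1a overlap.

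Co-culture with macrophages called no member in fibroblasts, in DMEM (where 1.00% of all genes were called) or in 4T1 CM (0.0242%). In DMEM, 12 of 36 members had an unadjusted p under 0.05 in limma (10.9% of all genes), and 1 was called by DESeq2 on recovered reads, the lactate transporter Slc16a3. The log2 change was positive for 31 of 36, with a median of 0.40 against 0.00 over all genes, and 14 members lay higher in every co-cultured than in every mono-cultured library, which 10.4% of all genes did. Slc16a3 went from 1853, 3194 and 3518 to 4555, 4396 and 5313 (0.78 ± 0.21, adjusted p = 0.12), and Ldha from 7426, 9913 and 9241 to 11309, 12771 and 12380.1 (0.46 ± 0.17, adjusted p = 0.283). Both pairs of groups were separate but did not pass the threshold. Macrophage markers moved beside them, with 19 of 23 tested markers higher in co-culture in DMEM and sums of 776 to 1715 CPM against 45.3 to 58.7 in mono-culture. Macrophage RNA would bring at most 16.5% of any member's value there, that of Aldoc.
In 4T1 CM, 2 of 36 members had an unadjusted p under 0.05 (9.31% of all genes), 0 were called by DESeq2 or by edgeR on recovered reads, and the median change was 0.00. The difference of the 4T1 CM effect between both cultures was called for 0 members (0.145% of all genes), with 6 at an unadjusted p under 0.05 (12.2% of all genes) and 1, P4ha2, called lower by DESeq2. This difference was negative for 31 of 36 members, with a median of -0.45, and the share of all genes is not given here. It equals the co-culture change in 4T1 CM less that in DMEM. It thus largely repeats the positive changes in DMEM above with the sign turned. Both of its effects rest on the same 12 libraries as the counts above.

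Hif1a showed no call in any fibroblast comparison and ranged over 510.3 to 1206 in the 12 libraries. The glycolytic enzymes differed in how widely they ranged over these libraries. Pkm ranged over 10931 to 18017 and Aldoa over 8224 to 12356, while Pgk1 ranged over 33.1 to 178 and Pgam1 over 58.1 to 234. The cytokine Mif ranged over 6488 to 9089.8. With 4T1 CM in mono-culture, 6.36% of all genes were called higher and 6.93% lower. Of the other oxygen-response genes, 8 of 38 tested were higher there and 2 lower. Nos2 went from 0.512, 2.03 and 4.62 to 1062 and 554 (8.02 ± 1.06, adjusted p = 4.69e-04), while Pdgfb and Edn1, growth and vessel factors, were lower by -3.06 ± 0.43 and -3.34 ± 0.54. Car9, a carbonic anhydrase that is among the best known HIF targets and is named here after its values were seen, went from 13.8, 22.3 and 27.7 to 334 and 156 (3.41 ± 0.65, adjusted p = 0.00459). Of the other genes of glycolysis and carbon metabolism, 2 of 31 were higher and 2 lower, near the shares of all genes. The 2 lower were Pgam2 and Gpd1 with -3.34 ± 0.62 and -2.97 ± 0.57. Pgam2 is the muscle form of the mutase, and it moved beside the skeletal muscle markers named above.

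Gapdh, the glyceraldehyde phosphate dehydrogenase, is often used to scale expression. Its value fell into 2 ranges that cut across groups and cell types, 20.0 to 218 normalized reads in 14 libraries and 1610.1 to 3591 in 12, with none between. In fibroblasts the high range held both mono-cultures in 4T1 CM, 1 of 3 mono-cultures in DMEM, 0 of 3 co-cultures in DMEM and 1 of 4 in 4T1 CM. In macrophages it held all 4 co-cultures in 4T1 CM, 1 of 3 in DMEM, 2 of 4 mono-cultures in 4T1 CM and 1 of 3 at day 0. No comparison called it, with standard errors of 1.11 to 1.73 on the log2 scale. The end of its transcript matches 96 other annotated genes, 92 of them pseudogenes, at 95% identity or more over at least 100 bases. The 5 of these that the tables list summed to 13.8 to 83.3 reads in every library, in both ranges. The sources used here do not say how reads shared between such copies were counted.

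**Figure D5:**
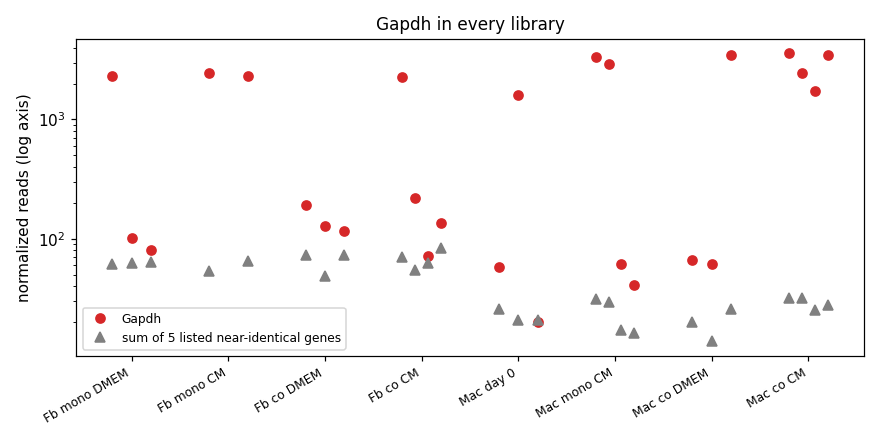
Normalized reads (log axis) of Gapdh (red) and of the 5 listed near-identical genes summed (grey) in each of the 26 libraries, by group. Gapdh lies either at 20.0 to 218 or at 1610.1 to 3591, also within single groups, while the copies stay between 13.8 and 83.3.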

How the data were processed

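Libraries were 3′ end sequencing of messenger RNA, per the labels' protocols. Tools named, per the submitters' processing notes and without roles, are STAR 2.4.2a, HTSeq and bcl2fastq, with mm10. Raw counts were deposited for macrophages, and for either cell type the authors deposited a signal of normalized reads. Of the fibroblast values, 100% came out as whole reads (tolerance 0.001) once multiplied by a size factor. Depth was 1434695 to 7632366 reads per library. Genes under the authors' listing limit are not covered.

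Fibroblasts were tested with limma 3.58.1 (trend, two-sided) on log2(deposited signal + 1), for genes at 5 or more in at least 2 libraries, with 12 libraries in 1 fit. Macrophages were tested with edgeR 4.0.16 (quasi-likelihood, TMM, filterByExpr) on the deposited counts, with 14 libraries in 1 fit. R was 4.3.3. Calls are at a Benjamini-Hochberg adjusted p under 0.05 over all genes tested. edgeR on the recovered fibroblast reads called 1396, 709, 107, 0 and 10 genes for 4T1 CM alone, 4T1 CM in co-culture, co-culture in DMEM, co-culture in 4T1 CM and the difference of effects. Alternatives were other pseudocounts, filters and scalings, DESeq2 1.42.0, a replicate block, only the 2 groups, leaving out each library, and subtraction of the fibroblast share. The tests were also run on simulated data, and that outcome is not reported here.

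The members and lists were chosen with earlier results of these data known. All members could be named, with the 3 genes of each other list with the smallest adjusted p per comparison. Replicates are separate samples per the labels, which say of fibroblasts alone that each came from different mice. Promoters are RefSeq windows of GRCm38.p6 and transcript ends GENCODE vM21. Some genes of the other lists are not reported here by name.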

Additional observations from a re-analysis of the deposited data

Results flagged for a closer look

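Values of a member that stood far from the rest of its group, by the gap to the nearest library relative to the group's range, were found in 6 of 108 groups of 4 libraries, where chance gives about 1 in 20. Gapdh stood at 2284 normalized reads in fibroblast co-culture in 4T1 CM replicate 1 and at 218, 72.1 and 137 in the others. Slc2a1 stood at 274 in macrophage mono-culture in 4T1 CM replicate 3, where the others held 226, 219.9 and 223. Pdk1 stood at 19.9 in macrophage mono-culture in 4T1 CM replicate 4, above 9.81, 10.6 and 9.49. Egln3 stood at 199 in macrophage co-culture in 4T1 CM replicate 1, above 147, 151 and 155. Adm and P4ha2 stood at 202 and 922 in macrophage co-culture in 4T1 CM replicate 3, above 18.7 to 38.2 and 278 to 323 in the others. That library had the highest fibroblast share, 19.9% against 2.93% to 6.40%. The share would bring 53.6% of Adm there and 85.0%, 49.3% and 91.1% in replicates 1, 2 and 4. For P4ha2 it would bring 53.5% there and 24.5%, 28.4% and 49.1% in the same replicates. The part of the share in these 2 outlying values was not tested.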

How the results depend on the processing

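Of 360 pairs of a member and a comparison, 127 were called, and 99 of these stayed called in every alternative run. Of 233 not called, 208 were called in none. None of 5518 alternative values reversed a call. The counts of called members moved by more than 1.5 times as follows, and the cause was not tested. For 4T1 CM in fibroblasts alone (6), leaving out a library gave 1 to 6. For 4T1 CM in co-cultured fibroblasts (1) it gave 0 to 3, only the 2 groups in the fit 0, and the replicate block 3 (2 higher, 1 lower). DESeq2 on recovered reads called 1 member for fibroblast co-culture in DMEM and 1 for the difference of effects, where 0 were called. For 4T1 CM in co-cultured macrophages (16), leaving out a library gave 8 to 16. The other macrophage counts stayed within 25 to 28, 22 to 27, 17 to 20 and 30 to 31. Same-numbered libraries share only a number by the labels, and not every pair deviated together. Correlations of their deviations were -0.241 to 0.194 over 15 fibroblast pairs, 2 of them over 0.1, and -0.256 to 0.432 over 19 macrophage pairs, 7 of them over 0.1, and 3 of 12 and 7 of 14 libraries correlated best with their own number. With the replicate block, the other counts stayed within 1.5 times, but 1 member, Adm, was called lower in macrophage mono-culture in 4T1 CM against day 0 (-2.77, adjusted p = 0.0236, against 0.0543 to 0.37 in its other alternatives), where 0 were called lower without it. At this depth, members under 20 normalized reads, such as Aldoc in fibroblasts and Adm in mono-cultured macrophages, were measured by a few reads.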
